A study of Homo sapiens with 42 samples.

Results

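The genes described here are 10 genes of the YAP and TEAD pathway, found by their symbols (CTGF, CYR61, ANKRD1, AMOTL2, AJUBA, LATS2, YAP1, WWTR1, TEAD1 and AXL) among 26228 gene rows of an expression table. In the Hippo pathway a chain of kinases that ends in LATS1 and LATS2 phosphorylates the coactivators YAP (YAP1) and TAZ (WWTR1) and keeps them out of the nucleus. In the nucleus YAP and TAZ bind the TEAD transcription factors, TEAD1 among them, on DNA and raise the transcription of target genes. CTGF and CYR61 (now CCN2 and CCN1), which encode secreted matrix-associated proteins, and ANKRD1, which encodes an ankyrin-repeat protein, are the targets most often used as a readout. AMOTL2 and LATS2 are targets that also restrain YAP, AJUBA encodes a LIM-domain scaffold that binds LATS kinases, and AXL encodes a receptor tyrosine kinase that YAP can induce.

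Polyadenylated RNA was sequenced from HAP1, a near-haploid human line derived from a chronic myelogenous leukaemia, in a CDK7 C312S form and a WT form. CDK7 is a kinase of the cell cycle and of transcription initiation, and C312S replaces the cysteine to which covalent CDK7 inhibitors attach. Each line was treated for 24 h in 7 ways: a combination at 2 µM or 500 nM, YKL at 2 µM or 500 nM, THZ531, THZ1, or DMSO, which gave 14 groups of 3 libraries and 42 libraries in all. YKL is taken to be the covalent CDK7 inhibitor of the series title, THZ1 attaches covalently to CDK7 and also to CDK12 and CDK13, and THZ531 attaches to CDK12 and CDK13. The combination's treatment label gives a dose and no compound, and its column names carry the codes of THZ531 and of YKL, so it is described as THZ531 with YKL. No dose of THZ531 or THZ1 is given in the labels, nor how many clones the C312S line stands for, and they do not say if each of the 3 libraries per group is its own culture. The p-values therefore measure the spread between these libraries, which may be technical.

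Promoter sequences are shown for 3 targets that moved in most comparisons below, and only from starts whose window held the motif marked here. The capitals mark GGAATG, the core of the TEAD recognition sequence, or CATTCC, its form on the other strand. All 3 are the 250 bases before the gene's start on the minus strand of GRCh38.p14, from RefSeq: chr6:131951373-131951622 for CTGF, chr10:90921088-90921337 for ANKRD1 and chr3:134374448-134374697 for the second start of AMOTL2.
CTGF: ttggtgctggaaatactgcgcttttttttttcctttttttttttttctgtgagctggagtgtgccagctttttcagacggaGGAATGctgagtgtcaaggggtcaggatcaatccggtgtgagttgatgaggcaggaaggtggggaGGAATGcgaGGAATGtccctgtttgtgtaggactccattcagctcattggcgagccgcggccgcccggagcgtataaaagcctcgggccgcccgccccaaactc
ANKRD1: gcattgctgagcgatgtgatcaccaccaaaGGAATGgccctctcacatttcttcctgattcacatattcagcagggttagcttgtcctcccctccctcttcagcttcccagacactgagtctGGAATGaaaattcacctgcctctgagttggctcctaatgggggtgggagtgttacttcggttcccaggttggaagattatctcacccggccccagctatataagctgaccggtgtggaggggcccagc
AMOTL2: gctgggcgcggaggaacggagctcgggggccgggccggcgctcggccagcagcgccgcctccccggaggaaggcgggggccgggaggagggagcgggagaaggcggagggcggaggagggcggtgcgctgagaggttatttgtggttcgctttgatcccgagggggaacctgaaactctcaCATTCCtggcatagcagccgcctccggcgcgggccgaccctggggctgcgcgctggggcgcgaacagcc
Searched on both strands in windows of 300 bases, from 250 before to 50 after a gene's start, GGAATG occurred in 4928 of 35116 RefSeq windows (14%), and 45 windows (0.128%) held at least 3 matches. The CTGF window was one of those, with matches that begin at positions -169, -104 and -95 from the start. ANKRD1 held matches at -220 and -128, and AMOTL2 held 1 at -69 of its second start and none at its first. LATS2 held 1 at +10, YAP1 at -162, AJUBA at -59 of its second start and AXL at -212 of its second start, and both WWTR1 windows held none. In all, 8 of the 10 genes were in the table with 12 windows, of which 7 held a match. CYR61 and TEAD1 are named only. A match is a run of letters and not a measured binding site, and the expression values were made on another build, hg19.

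Values are FPKM (fragments mapped to a gene, scaled by its length and by the library's fragments) as the authors deposited them, so the reads behind a value are unknown and intervals cover the spread between libraries. Changes are differences of log2(FPKM + 1), which understate the change of low genes, and a gene is said to have risen or fallen where limma gave an adjusted p under 0.05 over the 12816 genes that reached 1 FPKM in 3 or more libraries. In bulk RNA, fewer cells of a type and less RNA per cell cannot be told apart. The C312S libraries under DMSO and THZ1 stood apart from the other 5 C312S groups. Their summed FPKM averaged 794400 ± 15200 under DMSO and 852300 ± 52900 under THZ1 (SD, n = 3 each), against 556800 to 591200 in the other group means, and their first principal component scores averaged -42.7 and -38.5, against -19.5 to -8.02. CDK7 mRNA averaged 75.8 ± 0.741 FPKM under THZ1 and 60.5 ± 1.75 FPKM under DMSO in C312S, against 31.7 to 39.8 FPKM in the other C312S groups. CDK7 level does not test the label, since the substitution changes a codon. Of 10 blood cell markers 2 reached 1 FPKM in any library (CD33 with at most 1.23 and HBB with at most 1.11), PTPRC reached 0.163 FPKM, and HBG1 and CD3E were listed at 0 throughout. Of 5 epithelial markers 2 reached 1 FPKM (KRT18 at 23.0 to 43.1 FPKM), with EPCAM and CDH1 at most 0.0555 and 0.0213, and of 6 fibroblast markers 3 did, led by VIM at 211 to 509 FPKM.

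Spike-in RNAs were in every library, and their level over that of the genes differed between groups. Relative to DMSO of the same line the spike-ins lay higher by 2.44 (log2) under THZ1 in WT, 1.11 under the combination at 2 µM, 0.68 under YKL at 500 nM, 0.40 under the combination at 500 nM and 0.15 under YKL at 2 µM, and by -0.08 under THZ531. With the spike-ins set equal, the median gene of WT cells therefore moved by -2.07 under THZ1, -1.02 and -0.36 under the combination at 2 µM and 500 nM, -0.10 and -0.60 under YKL at 2 µM and 500 nM, and 0.07 under THZ531. With the summed FPKM set equal, it moved by -0.15, -0.05, 0.15, 0.27, 0.22 and 0.07 in the same order. Between C312S and WT under DMSO it moved by -1.30 with spike-ins and -0.45 with summed FPKM set equal, and between the combinations at 2 µM and 500 nM and THZ531 with spike-ins set equal by -1.08 and -0.43 in WT and -0.72 and -0.36 in C312S. Changes below are on the deposited scale, which leaves the median gene near 0, and are changes relative to other genes. Whether the spike-in amounts followed cell number was not tested.

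Of the 10 genes, 9 passed the filter on low values, and ANKRD1 did so with 29 of 42 libraries at 1 FPKM or more. AXL reached at most 0.766 FPKM in any library and was not tested. Group means differed most for ANKRD1, with 52.2-fold between the highest group (WT combination at 2 µM) and the lowest (C312S DMSO). The same ratio was 12.0 for CTGF (WT THZ1 over C312S DMSO) and 5.29 for CYR61 (WT combination at 2 µM over C312S DMSO). AMOTL2 spanned 2.84-fold, TEAD1 2.49-fold, LATS2 1.998-fold, AJUBA 1.98-fold and WWTR1 1.55-fold. YAP1, the coactivator itself, spanned 1.24-fold over all 14 groups, and each of its 13 pairs of neighbouring groups overlapped. The same count was 12 for AXL, 11 for AJUBA, LATS2, TEAD1 and WWTR1, 7 for AMOTL2 and ANKRD1, 5 for CTGF and 4 for CYR61. It was not made over all genes. Groups of YAP1 further apart in rank could still be separate, as WT THZ531 and the WT combinations were. All libraries of YAP1 lay between 16.1 and 22.1 FPKM.

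**Figure D1:**
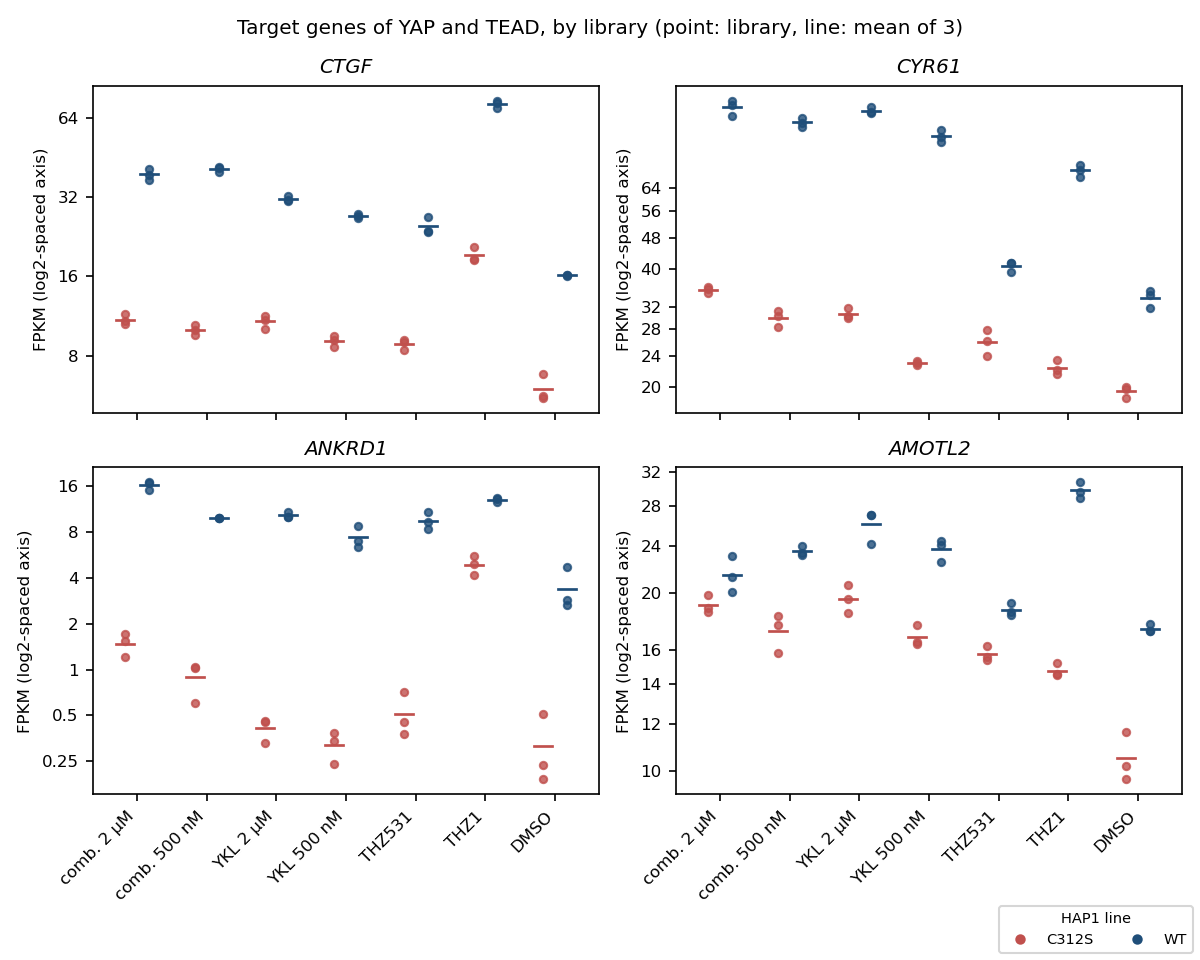
FPKM of CTGF, CYR61, ANKRD1 and AMOTL2 in each library (points), with the mean of each 3 as a line, on a log2 axis, for the C312S and WT lines under each treatment. For CTGF the 3 WT THZ1 libraries, at 69.5 to 74.0 FPKM, lie above all others, and for each of the 4 genes the WT libraries lie above the C312S libraries of the same treatment.

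The order of the groups differed between the targets. CTGF was highest in WT THZ1 (72.0 ± 2.27 FPKM), followed by the WT combinations at 500 nM (40.9 ± 1.03) and 2 µM (39.0 ± 1.91), which overlapped, then WT YKL at 2 µM (31.4 ± 0.809), WT YKL at 500 nM (27.0 ± 0.534) and WT THZ531 (24.8 ± 1.87), of which the last pair overlapped. C312S THZ1 (19.2 ± 1.23) came before WT DMSO (16.1 ± 0.0999), and the other C312S groups lay between 5.98 and 11.0 FPKM, with C312S DMSO lowest. CYR61 had WT YKL and the WT combinations at the top: 103 ± 4.66 FPKM in the combination at 2 µM and 101 ± 1.96 in YKL at 2 µM, which overlapped, then 94.3 ± 2.53 in the combination at 500 nM and 86.9 ± 3.26 in YKL at 500 nM. WT THZ1 followed with 71.1 ± 2.47 FPKM and WT THZ531 with 40.7 ± 1.17, both apart from their neighbours. ANKRD1 was highest in the WT combination at 2 µM (16.3 ± 1.00 FPKM) and WT THZ1 (13.1 ± 0.415), each apart from the next group. The lowest 4 ANKRD1 groups, all of C312S, overlapped one another in sequence between 0.313 and 0.514 FPKM. Errors are SD over 3 libraries.

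YKL raised the 3 classic targets in WT cells at both doses. CYR61 had 100.3, 103 and 99.5 FPKM under 2 µM and 83.9, 90.3 and 86.4 FPKM under 500 nM, against 35.2, 34.2 and 31.8 FPKM under DMSO. CTGF had 31.2, 32.4 and 30.8 FPKM under 2 µM and 27.0, 27.6 and 26.5 FPKM under 500 nM, against 16.2, 16.0 and 16.1 FPKM under DMSO. ANKRD1 had 10.9, 10.0 and 10.1 FPKM under 2 µM and 6.34, 8.83 and 6.98 FPKM under 500 nM, against 4.69, 2.66 and 2.86 FPKM under DMSO. Every treated library of these 3 genes lay above every DMSO library. The ratios of group means at 2 µM were 2.997 for CYR61, 1.95 for CTGF and 3.04 for ANKRD1, and at 500 nM 2.58, 1.68 and 2.17. On the log2(FPKM + 1) scale CYR61 rose by 1.56 ± 0.05 (SE) at 2 µM (limma adjusted p = 3.97e-23) and by 1.34 ± 0.05 at 500 nM (adjusted p = 2.46e-21). CTGF rose by 0.92 ± 0.06 (adjusted p = 4.27e-15) and 0.71 ± 0.06 (adjusted p = 2.69e-12), and ANKRD1 by 1.39 ± 0.13 (adjusted p = 5.13e-11) and 0.95 ± 0.13 (adjusted p = 1.53e-07). AMOTL2 also rose, to 27.1, 27.1 and 24.2 FPKM at 2 µM and 24.5, 24.1 and 22.5 FPKM at 500 nM, against 17.2, 17.7 and 17.2 FPKM under DMSO, with no overlap.

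The pathway's own effectors moved less under YKL in WT. WWTR1, which encodes TAZ, had 14.9, 14.3 and 14.9 FPKM at 2 µM and 13.8, 13.9 and 13.9 FPKM at 500 nM, against 10.9, 11.4 and 11.7 FPKM under DMSO. These groups did not overlap, and WWTR1 rose by 0.35 ± 0.05 at 2 µM (limma adjusted p = 7.64e-07) and 0.27 ± 0.05 at 500 nM (adjusted p = 4.34e-05). TEAD1 rose by 0.28 ± 0.08 at 2 µM (adjusted p = 0.00175) and by 0.18 ± 0.08 at 500 nM (adjusted p = 0.0442), where its libraries overlapped DMSO and the call was lost without DMSO replicate 1 (0.08, adjusted p = 0.404) or YKL replicate 2 (0.15) or 3 (0.17). YAP1 fell by 0.14 on the log2 scale at 500 nM (adjusted p = 0.0276), a call lost without any 1 of 3 libraries (-0.16 to -0.10) and turned to 0.085 when summed FPKM were set equal, and at 2 µM it differed by -0.01 (95% interval -0.12 to 0.10). AJUBA and LATS2 did not pass at either dose. In all, 6 of the 9 genes tested rose and 0 fell at 2 µM, where 31.8% of all genes rose and 33.5% fell. At 500 nM 6 rose and 1 fell, where 31.3% of all genes rose and 31.7% fell. The median change of the 9 was 0.35 and 0.27, beside -0.003 and -0.002 over all genes. With the spike-ins set equal CTGF, CYR61 and ANKRD1 stood at 0.83, 1.46 and 1.37 at 2 µM, where the calls for WWTR1 (0.25) and TEAD1 (0.18) were lost, and at 0.087, 0.70 and 0.42 at 500 nM, where CTGF lost its call (limma adjusted p = 0.424), while AMOTL2, WWTR1 and TEAD1 at 500 nM turned to -0.20, -0.34 and -0.44. The share of higher calls among all calls at 2 µM was 48.7% as deposited, 78.5% with summed FPKM set equal and 35.0% with spike-ins set equal, and at 500 nM 49.7%, 77.1% and 5.15%.

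The higher dose of YKL gave the higher level of the 3 classic targets in WT. From the libraries above, CYR61 was higher by 0.22 ± 0.05 at 2 µM than at 500 nM (limma adjusted p = 0.00367), CTGF by 0.21 ± 0.06 (adjusted p = 0.0222) and ANKRD1 by 0.45 ± 0.13 (adjusted p = 0.0336), with no overlap for any of the 3. These were 3 of 9 genes, where 2.14% of all genes were higher and 4.04% lower (6.18% in all). AMOTL2 differed by 0.13 (95% interval 0.02 to 0.25, adjusted p = 0.157) and YAP1 by 0.13 (0.02 to 0.24, adjusted p = 0.159), and AJUBA by 0.00 (-0.14 to 0.14). The CTGF call was lost without any 1 of 4 libraries (0.19 to 0.23) and the ANKRD1 call without any 1 of 5 (0.35 to 0.57), which left 1 to 3 called. Of all calls 34.6% were higher as deposited, 66.4% with summed FPKM set equal and 99.9% with spike-ins set equal.

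THZ1 gave WT cells their highest CTGF. CTGF had 69.5, 74.0 and 72.5 FPKM under THZ1, against 16.2, 16.0 and 16.1 FPKM under DMSO, a ratio of 4.47. CYR61 had 73.5, 71.4 and 68.5 FPKM under THZ1, against 35.2, 34.2 and 31.8 FPKM under DMSO, a ratio of 2.11. ANKRD1 had 12.6, 13.2 and 13.4 FPKM under THZ1, against 4.69, 2.66 and 2.86 FPKM under DMSO, a ratio of 3.85. THZ1 and DMSO libraries did not overlap for any of these. On the log2 scale CTGF rose by 2.09 ± 0.06 (limma adjusted p = 7.23e-24), CYR61 by 1.06 ± 0.05 (adjusted p = 7.39e-19) and ANKRD1 by 1.71 ± 0.13 (adjusted p = 3.85e-13), but with spike-ins set equal they turned to -0.26, -1.31 and -0.36. AMOTL2 rose to 30.8, 29.7 and 29.0 FPKM under THZ1, against 17.2, 17.7 and 17.2 FPKM under DMSO, by 0.74 ± 0.06 on the log2 scale (adjusted p = 2.86e-13). TEAD1 rose by 0.34 ± 0.08 (adjusted p = 0.000232), and AJUBA, LATS2, YAP1 and WWTR1 differed by -0.00, 0.01, 0.11 and 0.08 without passing. Thus 5 of 9 rose and 0 fell, where 34.0% of all genes rose and 34.8% fell. With spike-ins set equal all 9 fell, AMOTL2 by 1.55 and TEAD1 by 1.90 on the log2 scale, and the share of higher calls among all genes called was 0.257%, against 49.4% as deposited and 32.5% with summed FPKM set equal.

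THZ531 raised ANKRD1 and CTGF in WT cells and CYR61 much less. ANKRD1 had 8.39, 9.26 and 10.8 FPKM under THZ531, against 4.69, 2.66 and 2.86 FPKM under DMSO, and rose by 1.28 ± 0.13 (limma adjusted p = 2.19e-09). CTGF had 23.7, 23.7 and 26.9 FPKM under THZ531, against 16.2, 16.0 and 16.1 FPKM under DMSO, and rose by 0.59 ± 0.06 (adjusted p = 1.04e-09). CYR61 had 39.3, 41.3 and 41.4 FPKM under THZ531, against 35.2, 34.2 and 31.8 FPKM under DMSO, and rose by 0.26 ± 0.05 (adjusted p = 2.57e-05). None of these groups overlapped, and the ratios of means were 2.79 for ANKRD1, 1.54 for CTGF and 1.21 for CYR61. YAP1 rose by 0.15 ± 0.06 (adjusted p = 0.022) and LATS2, the kinase, by 0.12 ± 0.05 (adjusted p = 0.0475). Both calls were lost without DMSO replicate 1 or THZ531 replicate 1 (YAP1 0.13 and 0.14), LATS2 also without DMSO replicate 2 or THZ531 replicate 3 (0.08 to 0.14 over these 4), so the count of genes that rose was 5 of 9 with all libraries and 3 without either replicate 1. Of all genes 24.0% rose and 22.9% fell. The share of higher calls was 51.2% as deposited, 65.5% with summed FPKM set equal and 56.3% with spike-ins set equal. THZ531 and THZ1 cannot be compared at a known dose: the changes from DMSO, whose libraries they share, were 0.59 and 2.09 for CTGF, 0.26 and 1.06 for CYR61 and 1.28 and 1.71 for ANKRD1 (with spike-ins set equal, the THZ1 values of CTGF, CYR61 and ANKRD1 turn negative, as given above).

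**Figure D2:**
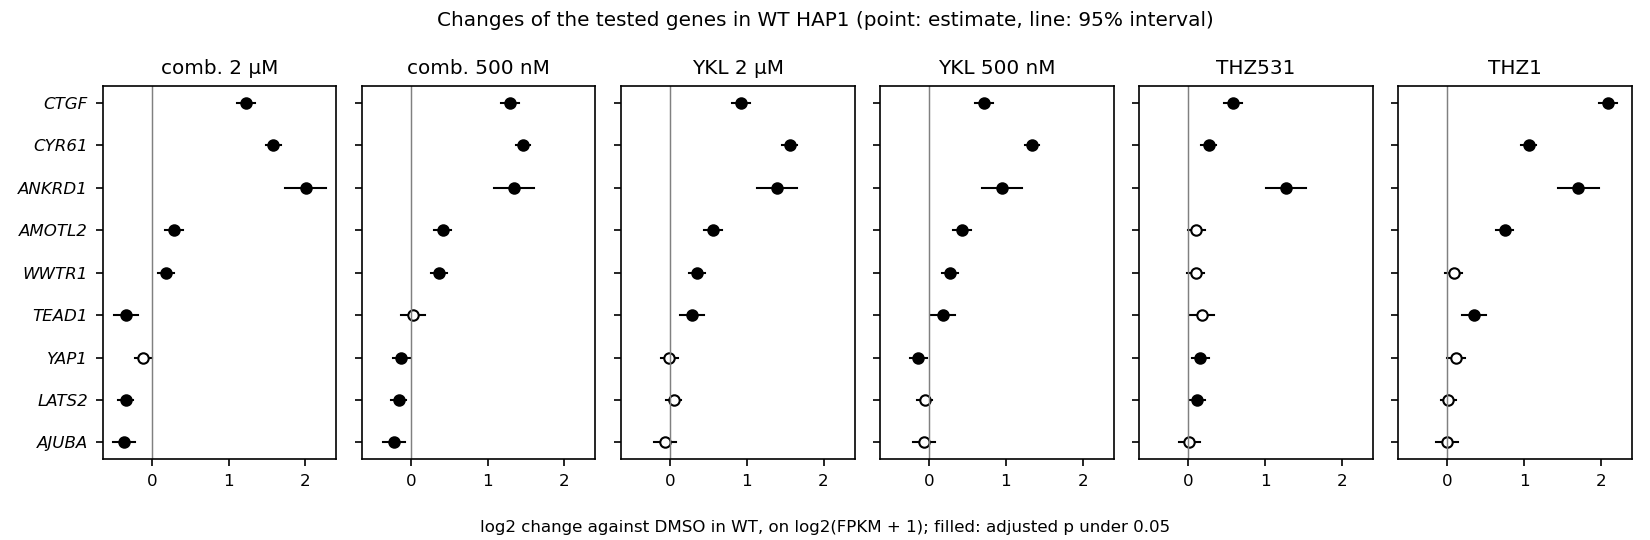
Change of each of 9 genes from DMSO in WT cells, in 6 panels by treatment, as a difference of log2(FPKM + 1) with its 95% interval, filled where the limma adjusted p was under 0.05. CTGF, CYR61 and ANKRD1 lie above 0 in every panel as deposited, with CTGF at 2.09 under THZ1, where all 9 genes turn negative when spike-ins are set equal.

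The combinations raised all 3 classic targets in WT cells relative to DMSO, and lowered AJUBA and LATS2. CTGF had 41.0, 38.9 and 37.1 FPKM at 2 µM and 41.6, 39.7 and 41.3 FPKM at 500 nM, against 16.2, 16.0 and 16.1 FPKM under DMSO. CYR61 had 107, 104 and 97.9 FPKM at 2 µM and 94.2, 97.0 and 91.9 FPKM at 500 nM, against 35.2, 34.2 and 31.8 FPKM under DMSO. ANKRD1 had 15.2, 16.8 and 17.0 FPKM at 2 µM and 9.93, 9.96 and 9.90 FPKM at 500 nM, against 4.69, 2.66 and 2.86 FPKM under DMSO. Every combination library lay above every DMSO library. The changes at 2 µM were 1.22 ± 0.06 for CTGF (limma adjusted p = 1.89e-18), 1.59 ± 0.05 for CYR61 (adjusted p = 1.83e-23) and 2.005 ± 0.13 for ANKRD1 (adjusted p = 4.48e-15). At 500 nM they were 1.29 ± 0.06 (adjusted p = 1.25e-18), 1.46 ± 0.05 (adjusted p = 2.95e-22) and 1.34 ± 0.13 (adjusted p = 1.12e-10). AMOTL2 rose by 0.29 and 0.41 and WWTR1 by 0.19 and 0.36 at 2 µM and 500 nM, though with spike-ins set equal AMOTL2 and WWTR1 turned to -0.78 and -0.85 at 2 µM and lost their calls at 500 nM (0.045 and 0.004). On that scale CTGF, CYR61 and ANKRD1 stood at 0.14 (adjusted p = 0.174), 0.48 and 1.04 at 2 µM, so that the CTGF call was lost, and at 0.93, 1.08 and 1.06 at 500 nM.

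AJUBA, the scaffold of LATS kinases, fell to 11.1, 10.1 and 9.64 FPKM in the combination at 2 µM, against 13.3, 13.7 and 13.4 FPKM under DMSO, by 0.36 on the log2 scale (limma adjusted p = 2.07e-05). LATS2 fell to 3.92, 3.55 and 3.65 FPKM at 2 µM, against 4.65, 5.07 and 5.12 FPKM under DMSO, by 0.34 (adjusted p = 1.69e-07). TEAD1 fell to 11.2, 12.2 and 13.1 FPKM at 2 µM, against 13.4, 16.3 and 17.2 FPKM under DMSO, by 0.33 (adjusted p = 0.000255). These groups did not overlap. At 2 µM TEAD1 and LATS2, itself a target, were thus lower while CTGF, CYR61 and ANKRD1 were higher as deposited. Of the 12 other targets tested 7 rose and 5 fell in this comparison. At 500 nM AJUBA fell by 0.22 (adjusted p = 0.00658) and LATS2 by 0.16 (adjusted p = 0.00403), TEAD1 differed by 0.03 without passing, and YAP1 fell by 0.12 (adjusted p = 0.048), a call lost without any 1 of 4 libraries (-0.17 to -0.06) and turned to 0.035 with summed FPKM set equal. In total 5 of 9 genes rose and 3 fell at each dose, where 38.9% of all genes rose and 38.1% fell at 2 µM, and 34.0% rose and 34.2% fell at 500 nM. Of all calls at 2 µM 50.5% were higher as deposited, 47.4% with summed FPKM set equal and 2.55% with spike-ins set equal, and at 500 nM 49.8%, 67.2% and 13.5%.

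Adding YKL to THZ531 raised CYR61 and CTGF in WT above their THZ531 levels. CYR61 reached 107, 104 and 97.9 FPKM at 2 µM and 94.2, 97.0 and 91.9 FPKM at 500 nM, against 39.3, 41.3 and 41.4 FPKM under THZ531 alone, and was higher by 1.32 ± 0.05 (limma adjusted p = 2.52e-21) and 1.19 ± 0.05 (adjusted p = 7.72e-20). CTGF reached 41.0, 38.9 and 37.1 FPKM at 2 µM and 41.6, 39.7 and 41.3 FPKM at 500 nM, against 23.7, 23.7 and 26.9 FPKM under THZ531, and was higher by 0.64 ± 0.06 (adjusted p = 1.66e-11) and 0.70 ± 0.06 (adjusted p = 4.4e-12). None of these groups overlapped THZ531. ANKRD1 was higher by 0.73 ± 0.13 at 2 µM (adjusted p = 7.51e-06), while at 500 nM it differed by 0.07 (95% interval -0.20 to 0.33, adjusted p = 0.679) and its libraries overlapped. With spike-ins set equal CTGF turned to -0.52 and ANKRD1 to -0.38 at 2 µM and ANKRD1 to -0.36 at 500 nM, while CYR61 stood at 0.15 at 2 µM, where its call was lost (adjusted p = 0.137), and at 0.75 at 500 nM, and CTGF at 0.26 at 500 nM.

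LATS2, AJUBA and YAP1 were lower in the WT combinations than under THZ531 alone at both doses, and TEAD1 at 2 µM. LATS2 had 3.92, 3.55 and 3.65 FPKM at 2 µM, against 5.53, 5.27 and 5.53 FPKM under THZ531, a difference of -0.45 ± 0.05 (limma adjusted p = 6e-10). TEAD1 had 11.2, 12.2 and 13.1 FPKM at 2 µM, against 17.5, 18.2 and 17.3 FPKM under THZ531, a difference of -0.51 ± 0.08 (adjusted p = 6.29e-07). AJUBA had 11.1, 10.1 and 9.64 FPKM at 2 µM, against 12.9, 13.7 and 14.2 FPKM under THZ531, a difference of -0.38 ± 0.07 (adjusted p = 1.32e-05). None of the 3 overlapped between the groups. YAP1 was lower by a difference of -0.27 at 2 µM (adjusted p = 7.29e-05) and -0.28 at 500 nM (adjusted p = 6.46e-05), and AJUBA and LATS2 by -0.23 and -0.28 at 500 nM (adjusted p = 0.00458 and 1.03e-05), where TEAD1 differed by -0.14 without passing (adjusted p = 0.107) and its libraries overlapped. AMOTL2 was higher by 0.19 at 2 µM and 0.31 at 500 nM and WWTR1 by 0.27 at 500 nM, which with spike-ins set equal turned to -0.95, -0.13 and -0.16. At 2 µM 4 of 9 genes were higher and 4 lower, where 38.3% of all genes were higher and 35.3% lower. At 500 nM 4 were higher and 3 lower, where 31.5% of all genes were higher and 29.7% lower. Of all calls at 2 µM 52.1% were higher as deposited, 42.2% with summed FPKM set equal and 2.03% with spike-ins set equal, and at 500 nM 51.5%, 64.7% and 9.23%.

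Against YKL alone at the same dose, the WT combinations added to CTGF and ANKRD1 and little to CYR61. At 500 nM, where 47.8% of all genes were called, CTGF was higher by 0.58 ± 0.06 (limma adjusted p = 2.14e-09) and ANKRD1 by 0.39 ± 0.13 (adjusted p = 0.0123), a call that ANKRD1 lost without YKL replicate 1 (0.30, adjusted p = 0.0875). CYR61 was higher by 0.12 ± 0.05 (adjusted p = 0.0358), a call lost without any 1 of 4 libraries (0.09 to 0.15). At 2 µM, where 71.0% of all genes were called, CTGF was higher by 0.30 ± 0.06 (adjusted p = 2.45e-05) and ANKRD1 by 0.61 ± 0.13 (adjusted p = 9.56e-05), while CYR61 differed by 0.03 (adjusted p = 0.596) and its groups overlapped. Of the 9 genes 3 were higher and 0 lower at 500 nM, but 2 higher and 5 lower at 2 µM. At 2 µM the group means of TEAD1, LATS2, AJUBA, AMOTL2, WWTR1 and YAP1 changed by -36.6%, -28.1%, -19.9%, -17.8%, -11.4% and -7.21%. Of these 6 genes 5 were called lower, where 71.0% of all genes were called in either direction. With spike-ins set equal CTGF, CYR61 and ANKRD1 turned to -0.68, -0.98 and -0.33 at 2 µM, and with summed FPKM set equal CTGF and CYR61 turned to -0.032 and -0.31.

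In C312S cells the same additions to THZ531 changed 8 of the 9 genes at 2 µM, as many as in WT, and 1 at 500 nM, against 7 in WT. Of all genes 18.5% were higher and 16.3% lower at 2 µM in C312S, against 38.3% and 35.3% in WT. At 500 nM the shares were 0.390% and 0.187% in C312S, against 31.5% and 29.7% in WT. CYR61 had 35.9, 35.4 and 34.6 FPKM in the combination at 2 µM and 30.3, 31.3 and 28.3 FPKM at 500 nM, against 26.2, 28.0 and 23.9 FPKM under THZ531. CTGF had 11.5, 10.9 and 10.5 FPKM at 2 µM and 10.1, 10.5 and 9.55 FPKM at 500 nM, against 9.18, 8.98 and 8.39 FPKM under THZ531. ANKRD1 had 1.21, 1.54 and 1.70 FPKM at 2 µM and 1.02, 1.04 and 0.602 FPKM at 500 nM, against 0.454, 0.711 and 0.378 FPKM under THZ531. All groups were apart except for ANKRD1 at 500 nM. At 2 µM CYR61 was higher by 0.43 ± 0.05 (limma adjusted p = 2.94e-08), CTGF by 0.28 ± 0.06 (adjusted p = 0.000339), ANKRD1 by 0.71 ± 0.13 (adjusted p = 7.65e-05), AMOTL2 by 0.26 ± 0.06 (adjusted p = 0.000498) and AJUBA by 0.23 ± 0.07 (adjusted p = 0.00988), but with spike-ins set equal CTGF, CYR61, AMOTL2 and AJUBA turned to -0.44, -0.33, -0.48 and -0.50.

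YAP1, WWTR1 and TEAD1 were lower in that C312S combination at 2 µM than under THZ531, with differences of -0.22, -0.16 and -0.23 (limma adjusted p = 0.0024, 0.0169 and 0.0201). Calls were lost for WWTR1 and TEAD1 without THZ531 replicate 1 (-0.13 and -0.19) or combination replicate 3 (-0.13 and -0.18), and for AJUBA without combination replicate 2 (0.20). That made 5 of 9 higher and 3 lower, where 18.5% of all genes were higher and 16.3% lower. At 500 nM CYR61 alone of the 9 passed, higher by 0.20 ± 0.05 (adjusted p = 0.0363), where 0.390% of all genes were higher and 0.187% lower. That call was lost without any 1 of 4 libraries (0.14 to 0.25), and with spike-ins set equal CYR61 turned to -0.17. CTGF differed by 0.16 at 500 nM (95% interval 0.05 to 0.28, adjusted p = 0.283). Of all calls at 2 µM 53.1% were higher as deposited, 38.0% with summed FPKM set equal and 0.314% with spike-ins set equal, and at 500 nM 67.6%, 90.6% and 0.238%.

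**Figure D3:**
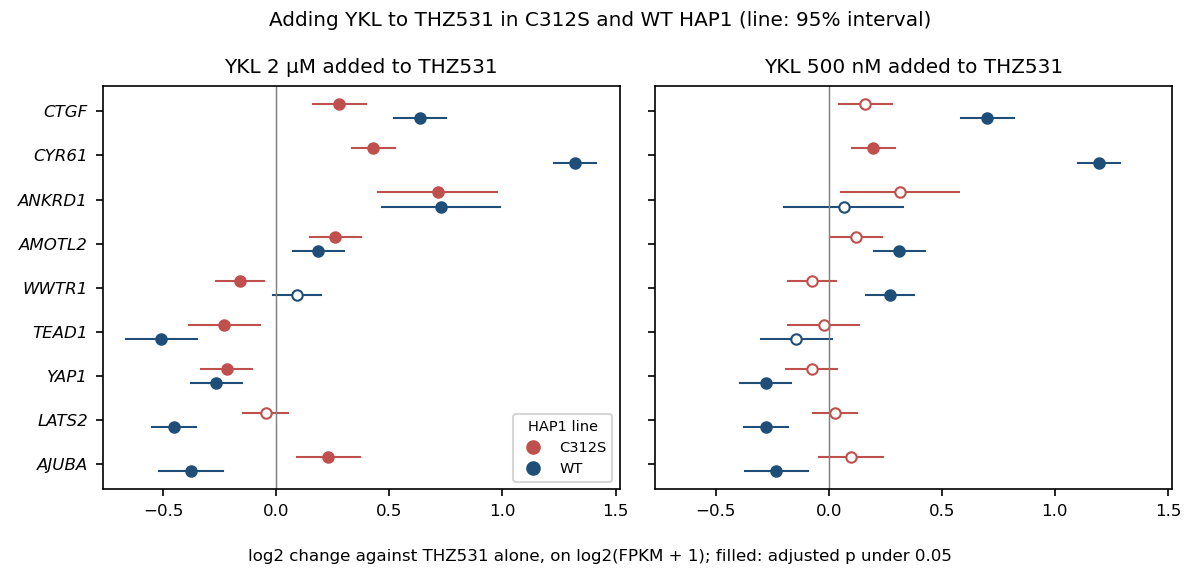
Difference in log2(FPKM + 1) of 9 genes between each combination and THZ531 alone, with its 95% interval, C312S above WT within each gene, at 2 µM and 500 nM of YKL. CYR61 lies at 1.32 and 1.19 in WT, against 0.43 and 0.20 in C312S. With spike-ins set equal it is smaller in WT, where its call at 2 µM is lost, and turns to -0.33 and -0.17 in C312S.

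The difference between the lines in what the added YKL did was tested directly, as the C312S effect minus the WT effect, in libraries that did not stand apart. CYR61 gained less in C312S, by -0.89 ± 0.07 at 2 µM (limma adjusted p = 1.44e-12) and -0.997 ± 0.07 at 500 nM (adjusted p = 1.74e-13), and with spike-ins set equal by -0.47 and -0.92 (adjusted p = 0.00403 and 8.69e-06). CTGF gained less in C312S by -0.36 ± 0.08 at 2 µM (adjusted p = 0.000423) and -0.54 ± 0.08 at 500 nM (adjusted p = 2.43e-06), which at 2 µM turned to 0.083 with spike-ins set equal. WWTR1 gave -0.25 and -0.34, the first of which turned to 0.12 with spike-ins set equal. AJUBA and LATS2, which were lower in the WT combinations, differed the other way, with AJUBA at 0.61 ± 0.10 and 0.33 ± 0.10 (adjusted p = 4.93e-06 and 0.00706) and LATS2 at 0.41 ± 0.07 and 0.30 ± 0.07 (adjusted p = 8.58e-06 and 0.000568). With spike-ins set equal both lost their calls at 500 nM (adjusted p = 0.0648 for AJUBA and 0.0509 for LATS2). ANKRD1 did not pass at either dose, with -0.016 at 2 µM and 0.25 at 500 nM (95% interval -0.12 to 0.62). With spike-ins set equal its 2 µM difference turned to 0.79 (limma adjusted p = 0.000237). As ratios of means ANKRD1 changed by 2.88 in C312S, against 1.72 in WT, at 2 µM, and by 1.73, against 1.05, at 500 nM. The C312S mean under THZ531 was 0.514 FPKM, where the log2(FPKM + 1) scale understates changes. TEAD1 differed by 0.28 at 2 µM (adjusted p = 0.0314) and YAP1 by 0.20 at 500 nM (adjusted p = 0.0363), calls lost without any 1 of 6 libraries for TEAD1 (0.23 to 0.33) and of 7 for YAP1 (0.14 to 0.28). Calls numbered 6 of 9 at each dose, where 53.1% of all genes were called at 2 µM and 41.5% at 500 nM. Of all calls at 2 µM 48.8% were higher as deposited, 56.2% with summed FPKM set equal and 91.2% with spike-ins set equal, and at 500 nM 49.3%, 36.4% and 59.8%.

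THZ1 raised CTGF and ANKRD1 in C312S cells as well, and both groups of this comparison stood apart in the same way from the other C312S libraries. CTGF had 18.6, 18.5 and 20.7 FPKM under THZ1, against 5.52, 5.61 and 6.81 FPKM under DMSO, a ratio of 3.22. ANKRD1 had 4.95, 4.20 and 5.54 FPKM under THZ1, against 0.237, 0.190 and 0.512 FPKM under DMSO, a ratio of 15.6. CYR61 had 22.1, 21.6 and 23.5 FPKM under THZ1, against 19.7, 18.7 and 20.0 FPKM under DMSO, a ratio of 1.15. All 3 groups were apart, with CYR61 closest to its DMSO level. CTGF rose by 1.54 ± 0.06 (limma adjusted p = 3.63e-20), ANKRD1 by 2.17 ± 0.13 (adjusted p = 2.6e-15) and AMOTL2 by 0.46 ± 0.06 (adjusted p = 1.56e-08). CYR61 rose by 0.19 ± 0.05 (adjusted p = 0.000615), which turned to -0.020 with spike-ins set equal. TEAD1 rose by 0.20 ± 0.08 (adjusted p = 0.0228), a call lost without DMSO replicate 1 or 3 or THZ1 replicate 1 (0.13 to 0.20). These were 5 of 9 genes, with 0 lower, where 33.9% of all genes rose and 29.7% fell. Of all calls 53.2% were higher as deposited, 40.3% with summed FPKM set equal and 19.7% with spike-ins set equal.

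The THZ1 effect differed between the lines, with 5 of 9 genes called for the C312S effect minus the WT effect, where 42.2% of all genes were. CYR61 rose less in C312S by -0.87 ± 0.07 (limma adjusted p = 6.25e-12), CTGF by -0.55 ± 0.08 (adjusted p = 1.89e-06) and AMOTL2 by -0.28 ± 0.08 (adjusted p = 0.00391), but with spike-ins set equal CYR61, CTGF and AMOTL2 turned to 1.29, 1.50 and 1.79. ANKRD1 differed by 0.46 ± 0.18 (adjusted p = 0.0404) and WWTR1 by -0.18 ± 0.07 (adjusted p = 0.043), calls lost without any 1 of 8 and 7 libraries (0.26 to 0.58 for ANKRD1, -0.23 to -0.13 for WWTR1), and WWTR1 turned to 1.77 with spike-ins set equal. Of all calls 53.1% were higher as deposited, 65.9% with summed FPKM set equal and 99.9% with spike-ins set equal.

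YKL alone in C312S can be set against DMSO only across the divide between the C312S libraries, so the dose comparison, which does not cross it, is given first. CYR61 had 30.2, 29.9 and 31.7 FPKM at 2 µM, against 23.0, 22.7 and 23.3 FPKM at 500 nM, and was higher by 0.40 ± 0.05 (limma adjusted p = 1.72e-06) with no overlap. CTGF had 11.3, 10.1 and 10.9 FPKM at 2 µM, against 9.50, 9.18 and 8.64 FPKM at 500 nM, and was higher by 0.22 ± 0.06 (adjusted p = 0.0227), also with no overlap. AMOTL2 was higher by 0.20 ± 0.06 (adjusted p = 0.0362), and these 3 of 9 genes stood beside 2.02% of all genes higher and 1.65% lower (3.67% in all). The calls for CTGF and AMOTL2 were lost without any 1 of 4 libraries (0.19 to 0.26) and 5 libraries (0.16 to 0.24), which left 1 to 3 called, and both were also lost with spike-ins (0.33 and 0.31) or summed FPKM (0.22 and 0.19) set equal. ANKRD1 had 0.451, 0.329 and 0.457 FPKM at 2 µM, against 0.238, 0.381 and 0.339 FPKM at 500 nM, and differed by 0.10 (95% interval -0.16 to 0.36). Of all calls 55.1% were higher as deposited, 63.9% with summed FPKM set equal and 100% with spike-ins set equal.

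Against C312S DMSO, CTGF was higher by 0.76 ± 0.06 at 2 µM (limma adjusted p = 2.59e-13) and 0.54 ± 0.06 at 500 nM (adjusted p = 4.95e-10), where 75.8% and 76.4% of all genes were called. CYR61 was higher by 0.63 ± 0.05 (adjusted p = 1.82e-13) and 0.23 ± 0.05 (adjusted p = 4.45e-05), and ANKRD1 differed by 0.11 and 0.01 (adjusted p = 0.436 and 0.931). AJUBA, LATS2 and TEAD1 were higher in every library of the 5 other C312S groups than in every C312S DMSO and THZ1 library. AJUBA, for example, had 10.3 to 14.02 FPKM in the other groups, against 6.13 to 7.58 FPKM under THZ1 and DMSO. As these differences run along the divide between the libraries, treatment and divide cannot be told apart in them. For the C312S effect of YKL minus the WT effect, CYR61 gave -0.93 ± 0.07 at 2 µM (adjusted p = 1.14e-13) and -1.11 ± 0.07 at 500 nM (adjusted p = 1.91e-15), where 71.8% and 73.7% of all genes were called, and it turned to 0.38 and 0.63 with spike-ins set equal. ANKRD1 gave -1.28 ± 0.18 (adjusted p = 2.38e-07) and -0.93 ± 0.18 (adjusted p = 3.27e-05), with -0.96 and -0.16 when spike-ins were set equal, where the second call was lost (adjusted p = 0.33). CTGF gave -0.16 and -0.17 (adjusted p = 0.0733 and 0.0539), which passed without C312S DMSO replicate 1 or 2 or the first YKL replicate, and turned to 1.02 and 1.43 with spike-ins set equal. Over all 9 genes this difference was called higher for 4 and lower for 4 at 2 µM, and for 4 and 2 at 500 nM.

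**Figure D4:**
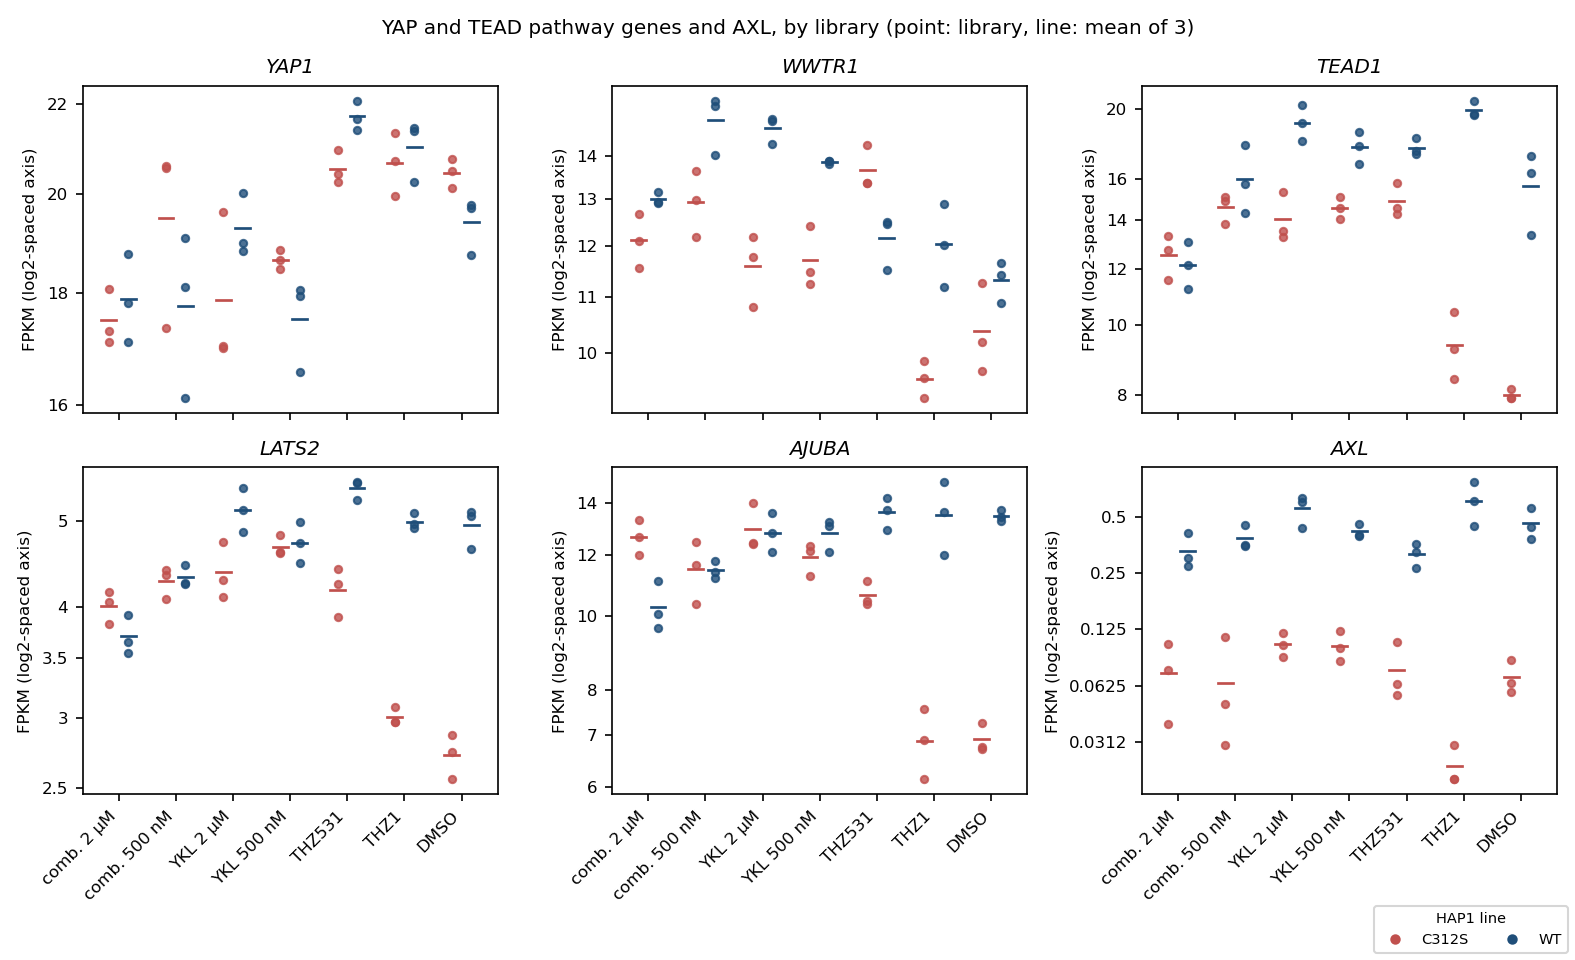
FPKM of YAP1, WWTR1, TEAD1, LATS2, AJUBA and AXL in each library (points), with the mean of each 3 as a line, on a log2 axis, for the C312S and WT lines under each treatment. YAP1 stays between 16.1 and 22.1 FPKM, AXL stays under 1 FPKM with C312S below WT, and AJUBA, LATS2 and TEAD1 are lowest in C312S under DMSO and THZ1.

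C312S cells held less CTGF, CYR61 and ANKRD1 than WT cells under every treatment. Under DMSO CTGF had 5.52, 5.61 and 6.81 FPKM in C312S, against 16.2, 16.0 and 16.1 FPKM in WT, a difference of -1.30 ± 0.06 (limma adjusted p = 1.32e-18). CYR61 had 19.7, 18.7 and 20.0 FPKM in C312S, against 35.2, 34.2 and 31.8 FPKM in WT, a difference of -0.76 ± 0.05 (adjusted p = 1.82e-15). ANKRD1 had 0.237, 0.190 and 0.512 FPKM in C312S, against 4.69, 2.66 and 2.86 FPKM in WT, a difference of -1.72 ± 0.13 (adjusted p = 1.67e-13). No library of one line reached into the other for these 3 genes or AMOTL2 under any of the 7 treatments. How many of all genes separated the lines in this way was not counted. Under DMSO 8 of 9 genes were lower in C312S and 0 higher, where 37.9% of all genes were lower and 41.3% higher, and ANKRD1 passed the filter through the WT groups and C312S groups under THZ1 and the combinations. AMOTL2 was lower by -0.68, AJUBA by -0.87, LATS2 by -0.68 and TEAD1 by -0.88, and YAP1 differed by 0.07 (adjusted p = 0.227), which turned to -1.30 with spike-ins and -0.41 with summed FPKM set equal. The C312S DMSO libraries are among those that stood apart. For AJUBA, LATS2 and TEAD1 the C312S over WT ratios of means were 0.513, 0.550 and 0.512 under DMSO. They were 1.01, 0.849 and 0.734 under YKL at 2 µM and 0.931, 0.990 and 0.822 at 500 nM. In the combination they were 1.23, 1.08 and 1.03 at 2 µM and 1.00, 0.990 and 0.916 at 500 nM. WWTR1 was lower by -0.12 (adjusted p = 0.0438), a call lost without any 1 of 4 libraries (-0.17 to -0.07). Of all calls 52.1% were higher as deposited, 21.8% with summed FPKM set equal and 0.379% with spike-ins set equal.

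Under THZ531, where neither line's libraries stood apart, the difference was -1.39 ± 0.06 for CTGF (limma adjusted p = 3.92e-19), -0.63 ± 0.05 for CYR61 (adjusted p = 1.75e-12) and -2.79 ± 0.13 for ANKRD1 (adjusted p = 7.94e-18). CTGF had 9.18, 8.98 and 8.39 FPKM in C312S, against 23.7, 23.7 and 26.9 FPKM in WT, and CYR61 had 26.2, 28.0 and 23.9 FPKM in C312S, against 39.3, 41.3 and 41.4 FPKM in WT. ANKRD1 had 0.454, 0.711 and 0.378 FPKM in C312S, against 8.39, 9.26 and 10.8 FPKM in WT. The WT libraries were thus several times those of C312S for CTGF and ANKRD1. AMOTL2, AJUBA, LATS2 and TEAD1 were lower by -0.24, -0.33, -0.31 and -0.23 (adjusted p = 0.00137, 0.000425, 5.58e-06 and 0.0198), and WWTR1 was higher by 0.15 (adjusted p = 0.0232). The TEAD1 call was lost without any 1 of 3 libraries (-0.28 to -0.21) and the WWTR1 call without 1 of 2 (0.12 to 0.17). In all 7 of 9 were lower in C312S and 1 higher, where 13.5% of all genes were lower and 17.0% higher. Of all calls 55.8% were higher as deposited, 25.6% with summed FPKM set equal and 77.4% with spike-ins set equal.

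Under the other treatments the C312S minus WT difference of CTGF was -1.46 and -1.47 with YKL at 2 µM and 500 nM, -1.85 with THZ1 and -1.74 and -1.93 with the combination at 2 µM and 500 nM. CYR61 gave -1.69, -1.87, -1.63, -1.52 and -1.62 in the same order, and ANKRD1 -3.00, -2.66, -1.26, -2.81 and -2.54. All of these passed, where 32.3%, 31.1%, 37.9%, 34.6% and 30.8% of all genes were lower in C312S, and no scaling run turned one of the 3 genes round. As ratios of means, WT over C312S, CTGF ran from 2.70 (DMSO) to 4.08 (combination at 500 nM), CYR61 from 1.56 (THZ531) to 3.78 (YKL at 500 nM) and ANKRD1 from 2.67 (THZ1) to 25.0 (YKL at 2 µM). AXL, the receptor kinase, had 0.0197 to 0.123 FPKM in C312S libraries, against 0.265 to 0.766 FPKM in WT libraries, and the lines did not overlap. Its group means ran from 0.0232 ± 0.00607 (THZ1) to 0.104 ± 0.0154 (YKL at 2 µM) in C312S, against 0.315 ± 0.0462 (THZ531) to 0.607 ± 0.159 (THZ1) in WT, all below the filter on low values. CTGF, AXL, YAP1 and WWTR1 share exonic positions with a gene on the opposite strand and AMOTL2 and AJUBA with one on the same strand (GENCODE annotation), and the sources used here do not state if reads were counted by strand. Of those partners only WWTR1-AS1 has a row, at 0.0506 to 0.624 FPKM.

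Other genes of the pathway did not move as a block in WT cells. Of 12 other YAP and TAZ targets tested, 7 rose and 3 fell under YKL at 2 µM, 6 and 3 at 500 nM, 7 and 1 under THZ531, 8 and 1 under THZ1, 7 and 5 in the combination at 2 µM and 7 and 4 at 500 nM. Beside these counts, the shares that rose and fell were 31.8% and 33.5% of all genes under YKL at 2 µM, 31.3% and 31.7% at 500 nM, 24.0% and 22.9% under THZ531, 34.0% and 34.8% under THZ1, 38.9% and 38.1% in the combination at 2 µM and 34.0% and 34.2% at 500 nM. Their median change was 0.33 under YKL at 2 µM and 0.41 under THZ1, beside -0.003 and -0.006 over all genes. GADD45A, a stress-response gene that YAP can induce, had 11.1 ± 1.08 FPKM under YKL at 2 µM, 11.9 ± 0.882 at 500 nM and 10.8 ± 1.84 under THZ1, against 4.93 ± 0.897 under DMSO, and rose by 1.04, 1.12 and 0.99 (limma adjusted p = 4.68e-10, 1.03e-10 and 1.02e-09), the last of which turned to -1.07 with spike-ins set equal. CRIM1, which encodes a transmembrane protein that binds bone morphogenetic proteins, rose to 9.23 ± 0.894, 7.80 ± 0.469, 6.55 ± 0.232 and 10.0 ± 0.579 FPKM under YKL at 2 µM, YKL at 500 nM, THZ531 and THZ1, against 4.38 ± 0.454 under DMSO (adjusted p = 1.09e-12, 4.93e-10, 1.92e-06 and 5.76e-14), though with spike-ins set equal its THZ1 change of 1.04 turned to -1.0. FOXF2, a forkhead factor, fell to 6.22 ± 0.464 FPKM under YKL at 2 µM, against 9.69 ± 0.931 under DMSO, by 0.56 on the log2 scale (adjusted p = 1.77e-07), and by 0.81 in the combination at 2 µM (adjusted p = 5.26e-11). ASAP1, another listed target, was lower by -0.76 in the combination at 2 µM than under THZ531 in WT (9.85 ± 0.606 against 17.4 ± 0.614 FPKM, adjusted p = 4.41e-12) and by -0.47 in C312S (11.0 ± 0.446 against 15.6 ± 0.843 FPKM, adjusted p = 2.03e-06). Errors are SD over 3 libraries.

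Among 19 upstream Hippo genes, all tested, 7 rose and 4 fell in WT under YKL at 2 µM, 6 and 5 at 500 nM, 10 and 3 under THZ531, 8 and 3 under THZ1, 5 and 8 in the combination at 2 µM and 8 and 4 at 500 nM. For all genes the shares higher and lower in those 6 comparisons were 31.8% and 33.5%, 31.3% and 31.7%, 24.0% and 22.9%, 34.0% and 34.8%, 38.9% and 38.1%, and 34.0% and 34.2%, so the YKL counts lie near the background. LATS1, the kinase paired with LATS2, fell to 4.94 ± 0.385 FPKM under YKL at 2 µM and 4.74 ± 0.0553 at 500 nM, against 8.33 ± 1.13 under DMSO (limma adjusted p = 1.16e-08 and 3.28e-09). MAP4K4, a kinase that can activate LATS kinases, and NF2, the Hippo activator merlin, rose under THZ1 to 42.7 ± 1.21 and 15.1 ± 1.00 FPKM, against 24.9 ± 1.15 and 9.36 ± 0.656 under DMSO (adjusted p = 4.71e-17 and 1.75e-08), though MAP4K4 and NF2 turned to -1.58 and -1.54 on the log2 scale with spike-ins set equal. AMOT, a relative of AMOTL2 that binds YAP, rose under THZ531 to 14.4 ± 0.118 FPKM, against 9.39 ± 0.892 under DMSO (adjusted p = 6.16e-09). In the WT combination at 2 µM against THZ531 1 of the 19 was higher and 13 lower, where 38.3% of all genes were higher and 35.3% lower, with a median of -0.27 beside 0.02 over all genes, and LATS1 had 5.30 ± 0.369 FPKM, against 10.1 ± 1.02 under THZ531 (adjusted p = 6.19e-11). In C312S the same comparison gave 2 higher and 7 lower, where 18.5% and 16.3% of all genes were. At 500 nM 6 of the 19 were lower in WT, where 29.7% of all genes were, and 0 passed in C312S, where 0.390% of all genes were higher and 0.187% lower, and the difference between the lines in these counts was not tested.

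Of 7 TEAD and VGLL genes 5 were tested, of which 3 rose and 2 fell in WT under YKL at 2 µM, 1 and 1 at 500 nM, 3 and 0 under THZ531, 2 and 2 under THZ1, 3 and 1 in the combination at 2 µM and 2 and 0 at 500 nM, beside the shares of all genes just given. VGLL4, a TEAD cofactor that competes with YAP, rose in WT to 15.2 ± 0.407 FPKM under YKL at 2 µM, 15.0 ± 0.134 at 500 nM and 15.9 ± 0.883 under THZ1, against 11.0 ± 0.228 under DMSO (limma adjusted p = 1.41e-10, 5.72e-10 and 8.94e-12), and in C312S to 14.7 ± 0.816 under THZ1, against 8.72 ± 0.427 under DMSO (adjusted p = 7.15e-15). With spike-ins set equal the WT changes of VGLL4 turned to -0.19 under YKL at 500 nM and -1.70 under THZ1. In the WT combination at 2 µM against THZ531 2 of the 5 were higher and 1 lower, where 38.3% of all genes were higher and 35.3% lower. TEAD4 was the lower one, with 26.2 ± 1.77 FPKM against 39.1 ± 0.564 FPKM under THZ531 (adjusted p = 3.56e-09). VGLL4 was higher, with 16.4 ± 0.341 FPKM against 12.5 ± 0.856 FPKM (adjusted p = 4.07e-09), as was TEAD2, with 22.6 ± 1.32 FPKM against 19.7 ± 0.174 FPKM (adjusted p = 0.00612), but with spike-ins set equal VGLL4 and TEAD2 turned to -0.75 and -0.96, and with summed FPKM set equal TEAD2 lost its call (adjusted p = 0.305). In C312S, THZ1 also raised AMOT to 9.91 ± 0.503 FPKM, against 5.71 ± 0.452 under DMSO (adjusted p = 1.67e-11), and MAP4K4 to 27.1 ± 0.851 FPKM, against 16.9 ± 0.323 (adjusted p = 3.04e-15). Between the lines under DMSO 0 of 12 other targets were higher in C312S and 10 lower, where 41.3% and 37.9% of all genes were, and under THZ531 0 were higher and 6 lower, where 17.0% and 13.5% of all genes were. Under THZ531 CRIM1 stood at 3.46 ± 0.287 FPKM in C312S, against 6.55 ± 0.232 in WT (adjusted p = 6.48e-10), and AMOT, an upstream gene, at 8.48 ± 0.414 FPKM, against 14.4 ± 0.118 (adjusted p = 8.56e-11).

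**Figure D5:**
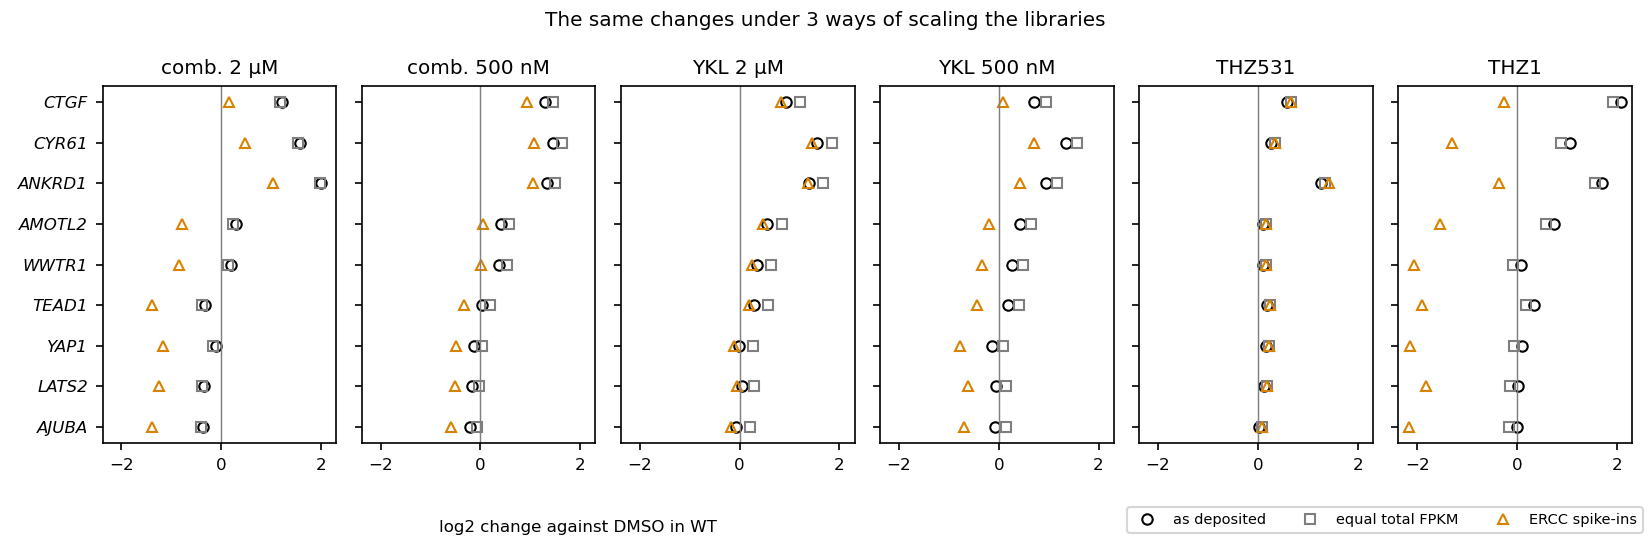
Change from DMSO of 9 genes in WT cells under each treatment, as deposited, with summed FPKM set equal and with spike-ins set equal, as differences of log2(FPKM + 1). CTGF, CYR61 and ANKRD1 stay above 0 under all 3 scalings for every treatment except THZ1, where with spike-ins set equal they lie at -0.26, -1.31 and -0.36.

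The genes fell into different patterns over the 14 group means, after the mean of each line was taken off. As a description, Pearson's r was 0.93 between LATS2 and TEAD1, 0.92 between AJUBA and LATS2 and 0.85 between AJUBA and TEAD1, of which all 3 share the low C312S DMSO and THZ1 values. CTGF and ANKRD1 gave 0.81, CTGF and CYR61 0.49, and CYR61 and YAP1 -0.63. On the deposited scale the 2 secreted targets thus followed different orders of treatments: CTGF peaked with THZ1 and CYR61 with YKL and the combinations. With spike-ins set equal, the CTGF change from DMSO under THZ1 in WT turned to -0.26, so this order depends on the scaling. Among 9528 candidate genes those close in pattern to CTGF included DDX24 (r = 0.987) and ALAS1 (0.973). Closest to CYR61 were HIST1H2BN (0.956), TTC38 (0.955) and MAN1B1 (0.953), and closest to YAP1 were ZNF800 (0.939), LRRC58 (0.923) and ERO1A (0.920). All points share libraries, lines and the deposited scaling.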

How the data were processed

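Gene expression in 42 libraries of polyadenylated RNA was taken from a single table of deposited FPKM, made by the authors with HISAT2 2.0.4, Cufflinks 2.2.1 and Cuffnorm on hg19, per the submitters' processing notes, which give these tools no order. The library kit is described as stranded per the labels' protocols. The filters and the normalization between libraries behind the deposited FPKM are not given in the sources used here. Columns were tied to samples through the descriptions in the labels, with 0 unmatched. Of 26320 rows 92 are spike-in RNAs, which were kept out of the tests, and 23 of them, over 1 FPKM in all libraries, gave the spike-in level. Depth is unknown, so no count model and no counting interval was used, and an exact 0 can be a failed estimate.

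From these values log2(FPKM + 1) was fitted in R 4.3.3 with limma 3.58.1: 14 group means over all 42 libraries, 1 shared spread with a trend on expression, a median of 31 degrees of freedom, and Benjamini-Hochberg adjustment within each of 36 comparisons over all 12816 genes that reached 1 FPKM in 3 or more libraries. A call is an adjusted p under 0.05, and intervals are 95%. Of the 36 comparisons those of C312S THZ531 and the C312S combinations against DMSO, of C312S combinations against YKL, and of the combination doses against each other are not described. The fit was tested on simulated data first. Libraries of a group correlated across genes at 0.97 or more, and 0 were identical. Alternatives were a pseudocount of 0.1, no filter, median-ratio, summed-FPKM and spike-in scaling, a fit of only the groups compared, a replicate block, and each library left out. Python 3.11.15 with pandas 2.3.3 and matplotlib 3.10.9 searched the promoters and drew the plots.

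The 10 genes, the 3 pathway lists and the marker lists were chosen with earlier results of these data known. All 10 genes are described, and a pathway gene could be named where it was called and averaged 5 FPKM or more in either group compared, among the strongest of its list in that comparison. The genes closest in pattern are the 3 with the highest Pearson correlation to each of CTGF, CYR61 and YAP1 over 14 group means, of which 1 is not reported here.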

Additional observations from a re-analysis of the deposited data

Results flagged for a closer look

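Among the genes described above for each comparison, a treatment effect differed between C312S and WT on the deposited scale in 21 cases by a test of the difference itself. Values are the C312S effect minus the WT effect in log2(FPKM + 1), with limma adjusted p. Adding YKL at 2 µM to THZ531 gave -0.8917 for CYR61 (adjusted p = 1.44e-12), -0.3568 for CTGF (adjusted p = 0.000423), -0.2503 for WWTR1 (adjusted p = 0.005), 0.6075 for AJUBA (adjusted p = 4.93e-06), 0.4061 for LATS2 (adjusted p = 8.58e-06) and 0.2783 for TEAD1 (adjusted p = 0.0314). Adding YKL at 500 nM to THZ531 gave -0.9968 for CYR61 (adjusted p = 1.74e-13), -0.5394 for CTGF (adjusted p = 2.43e-06), -0.3432 for WWTR1 (adjusted p = 0.00035), 0.3301 for AJUBA (adjusted p = 0.00706), 0.302 for LATS2 (adjusted p = 0.000568) and 0.203 for YAP1 (adjusted p = 0.0363). None of the libraries in these differences are the C312S DMSO or THZ1 libraries that stood apart. With spike-ins set equal, CTGF and WWTR1 at 2 µM turned to 0.083 and 0.12, and AJUBA and LATS2 at 500 nM lost their calls.

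THZ1 against DMSO gave -0.8657 for CYR61 (limma adjusted p = 6.25e-12), -0.5526 for CTGF (adjusted p = 1.89e-06), -0.285 for AMOTL2 (adjusted p = 0.00391), -0.1849 for WWTR1 (adjusted p = 0.043) and 0.4615 for ANKRD1 (adjusted p = 0.0404). YKL at 2 µM against DMSO gave -0.9303 for CYR61 (adjusted p = 1.14e-13) and -1.28 for ANKRD1 (adjusted p = 2.38e-07), and YKL at 500 nM gave -1.112 for CYR61 (adjusted p = 1.91e-15) and -0.933 for ANKRD1 (adjusted p = 3.27e-05). Over all 9 genes tested, the YKL difference was called higher for 4 and lower for 4 at 2 µM, and for 4 and 2 at 500 nM. Of all genes 71.8% and 73.7% were called. Only genes whose YKL difference is given above are listed here. The YKL differences set C312S libraries from both sides of the divide against each other, and the part of the divide in them was not tested. With spike-ins set equal, the THZ1 differences turned to 1.29 (CYR61), 1.5 (CTGF), 1.79 (AMOTL2) and 1.77 (WWTR1). The YKL differences of CYR61 turned to 0.38 at 2 µM and 0.63 at 500 nM, and ANKRD1 lost its call at 500 nM.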

How the results depend on the processing

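Scaling decided more than any other choice run, and depth cannot be judged from FPKM. Of 228 changes of single genes (a gene in a comparison), the spike-in scaling turned 58 round and the summed-FPKM scaling 8, while the pseudocount, the filter, the median-ratio scaling, the fit of only the groups compared, the replicate block and leaving out a library turned none. Why the scalings differ was not tested. Calls were lost for 25 of these changes with spike-ins and 19 with summed FPKM set equal, 3 with a pseudocount of 0.1, 9 without the filter, 6 with median-ratio scaling and 14 in the fit of only the groups compared. Libraries were fitted as unpaired, and whether the replicate numbers pair them was not settled. Same-number deviations correlated with a median of 0.017 (from -0.207 to 0.248), against -0.00528 for other numbers, and 20 of 42 libraries matched their own number best. With the replicate block TEAD1 under WT YKL at 500 nM (0.18, limma adjusted p = 0.0521) and YAP1 under the WT combination at 500 nM (-0.12, adjusted p = 0.0529) lost their calls, LATS2 under C312S THZ1 gained one (0.11, adjusted p = 0.0479), and the count of all genes called stayed within 1.5 times in every comparison (8051 under WT YKL at 500 nM, 8074 without the block).

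With spike-ins set equal, the WT changes from DMSO turned under THZ1 to -1.55 (AMOTL2), -0.36 (ANKRD1), -1.0 (CRIM1), -0.26 (CTGF), -1.31 (CYR61), -1.07 (GADD45A), -1.83 (LATS2), -1.58 (MAP4K4), -1.54 (NF2), -1.90 (TEAD1), -1.70 (VGLL4), -2.06 (WWTR1) and -2.14 (YAP1). Under YKL at 500 nM they turned to -0.20 (AMOTL2), -0.44 (TEAD1), -0.19 (VGLL4) and -0.34 (WWTR1), under the combination at 2 µM to -0.78 (AMOTL2), -0.50 (VGLL4) and -0.85 (WWTR1), and at 500 nM to -0.34 (TEAD1). Against THZ531 the WT combination at 2 µM turned to -0.95 (AMOTL2), -0.38 (ANKRD1), -0.52 (CTGF), -0.052 (GADD45A), -0.96 (TEAD2), -0.75 (VGLL4) and -1.02 (WWTR1), and at 500 nM to -0.13 (AMOTL2), -0.36 (ANKRD1) and -0.16 (WWTR1). Against YKL it turned at 2 µM to -0.33 (ANKRD1), -0.68 (CTGF) and -0.98 (CYR61). In C312S the combination at 2 µM against THZ531 turned to -0.50 (AJUBA), -0.48 (AMOTL2), -0.44 (CTGF) and -0.33 (CYR61), at 500 nM to -0.26 (AJUBA), -0.24 (AMOTL2), -0.17 (CYR61) and -0.30 (LATS2), and THZ1 to -0.020 (CYR61). YAP1 in C312S against WT under DMSO turned to -1.30. C312S minus WT turned for THZ1 to 1.99 (AJUBA), 1.79 (AMOTL2), 1.50 (CTGF), 1.29 (CYR61), 1.90 (TEAD1), 1.77 (WWTR1) and 1.95 (YAP1), for YKL at 2 µM to 1.02 (CTGF) and 0.38 (CYR61), at 500 nM to 1.43 (CTGF) and 0.63 (CYR61), and for the combination at 2 µM against THZ531 to 0.79 (ANKRD1), 0.083 (CTGF) and 0.12 (WWTR1).

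With summed FPKM set equal, WT YKL at 2 µM turned to 0.21 (AJUBA) and 0.27 (YAP1) and at 500 nM to 0.14 (LATS2) and 0.085 (YAP1), the WT combination at 500 nM to 0.035 (YAP1), the WT combination against YKL at 2 µM to -0.032 (CTGF) and -0.31 (CYR61), and C312S against WT under DMSO to -0.41 (YAP1).

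The share of all tested genes called moved with spike-ins set equal to 25.8% (46.9% as deposited) for WT THZ531, 89.8% (6.18%) for WT YKL at 2 µM against 500 nM, 39.4% (63.6%) for C312S THZ1, 91.9% (34.8%) and 78.7% (0.577%) for the C312S combination at 2 µM and 500 nM against THZ531, 0.218% (3.67%) for C312S YKL at 2 µM against 500 nM, 18.0% (30.4%) for C312S against WT under THZ531, and 96.1% (42.2%) and 19.2% (41.5%) for the C312S minus WT effects of THZ1 and of the combination at 500 nM. In the fit of only the groups compared it was 3.19% for WT YKL at 2 µM against 500 nM and 0.062% for the C312S combination at 500 nM, which reached 0.913% with summed FPKM set equal. Of the 9 genes, spike-in scaling called 3 for WT THZ531 (5 as deposited, 8 with summed FPKM set equal), 9 for WT THZ1 (5, with 0 of the 9 higher), 9 for WT YKL at 2 µM against 500 nM (3), 2 for C312S THZ1 (5), 6 for the C312S combination at 500 nM (1, and 0 in the fit of only the groups compared), 3 for C312S against WT under THZ531 (8), and 9 and 3 for the C312S minus WT effects of THZ1 (5) and the combination at 500 nM (6). The THZ1 effect gave 3 without the filter, 3 in the fit of only the groups compared and 2 with summed FPKM set equal. C312S YKL at 2 µM against 500 nM gave 1 under each of spike-in scaling, summed FPKM and the fit of only the groups compared (3), and the WT combination at 500 nM gave 5 with summed FPKM set equal (8). Leaving out 1 library gave 3 to 6 of the 9 genes for WT THZ531, 2.81% to 5.17% of genes and 1 to 3 of the 9 for WT YKL at 2 µM against 500 nM, 1.37% to 2.43% and 1 to 3 for the same in C312S, 0.218% to 0.492% and 0 to 1 for the C312S combination at 500 nM, and 3 to 5 of the 9 for the C312S minus WT effect of THZ1.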
